A study of Mus musculus with 6 samples.

Results

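A set of 10 genes of fat cells was followed in the lungs of WT and Zpbp2 KO mice at ZT10, 10 hours into the light phase. They were picked by symbol out of the 47069 genes in the deposited table, and all 10 were expressed highly enough to be among the 17037 genes tested. Their products fall into 3 groups. Lep, Adipoq, Retn and Cfd encode secreted proteins. Plin1, Cidec and Pnpla3 encode proteins of the lipid droplet. Pck1, Thrsp and Sncg encode a metabolic enzyme, a lipogenic factor and a small cytosolic protein. Of the 10, 8 stand among the genes that the study lists as lower in KO lungs at ZT7, an experiment not analysed here, and Cfd and Retn do not.

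White adipocytes store triglyceride in 1 large droplet and release hormones into the blood. The lung itself contains few adipocytes, but fat lies beside the large airways and vessels and around the heart and mediastinum, and pieces of it can be taken with the organ. In bulk RNA a smaller number of cells and less RNA per cell cannot be told apart.

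The comparison held 3 WT mice (WT4, WT5 and WT6) and 3 KO mice (KO4, KO5 and KO6), adults of the C57BL/6J strain, each sequenced as 1 lung library. The KO line, B6.129S7-Zpbp2tmZuk/Mmjax, lacks exons 1 to 3 of Zpbp2 in every cell and was kept on the C57BL/6J background, with control mice born in the same colony. Zpbp2 itself was counted 1, 2 and 2 times in the WT mice and 0 times in each KO mouse, at or under the floor of 3 counts in all 6 libraries, so the labels could not be checked by it. The sex of the mice is not in the labels. Xist, which is transcribed from the inactive X chromosome of females, lay between 715 and 994 CPM (counts scaled to the TMM-adjusted library size) in the 6 mice. Ddx3y, the highest of the 4 Y-linked genes examined, reached at most 0.189 CPM, in KO5. In that mouse Ddx3y, Kdm5d, Uty and Eif2s3y had 9, 7, 6 and 2 counts. The other mice had 0 counts of them, apart from 1 count of Uty in WT5. The genes that define lung were abundant in every library, with Sftpc, a surfactant protein of type 2 alveolar cells, at 9327 CPM or more. Between 19981428 and 46796908 reads were counted per mouse, most of them in KO5, which also lay farthest from the others on the first principal component.

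Positions are those of the whole gene in GRCm38 with the GENCODE M21 annotation. The secreted factors were Lep (ENSMUSG00000059201) at chr6:29060220-29073877, Adipoq (ENSMUSG00000022878) at chr16:23146536-23158028, Cfd (ENSMUSG00000061780) at chr10:79890853-79892655 and Retn (ENSMUSG00000012705) at chr8:3655770-3660110. The droplet genes were Plin1 (ENSMUSG00000030546) at chr7:79720218-79732903, Cidec (ENSMUSG00000030278) at chr6:113424634-113435760 and Pnpla3 (ENSMUSG00000041653) at chr15:84167837-84187236. The others were Pck1 (ENSMUSG00000027513) at chr2:173153048-173159273, Thrsp (ENSMUSG00000035686) at chr7:97412938-97417730 and Sncg (ENSMUSG00000023064) at chr14:34370274-34374789. Plin1, Cidec, Thrsp and Sncg are on the minus strand and the other 6 on the plus strand.

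The sequences before the start sites of the 4 secreted factors are given first, because they include Lep and Cfd, which had the largest estimated differences between genotypes in either direction among the 10 genes. Each is the 250 bases upstream of the RefSeq start in GRCm38.p6, printed on the strand of the gene. They lie at chr6:29059971-29060220 for Lep, chr16:23146286-23146535 for Adipoq, chr10:79890603-79890852 for Cfd and chr8:3655520-3655769 for Retn, all on the plus strand. Capitals mark matches to the C/EBP-like motif TTNNGCAA or to the CCAAT box on either strand.
Lep: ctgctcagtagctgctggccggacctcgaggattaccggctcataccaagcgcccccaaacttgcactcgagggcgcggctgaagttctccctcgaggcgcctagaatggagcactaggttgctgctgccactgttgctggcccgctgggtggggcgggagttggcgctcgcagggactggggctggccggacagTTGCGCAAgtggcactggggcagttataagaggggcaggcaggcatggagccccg
Adipoq: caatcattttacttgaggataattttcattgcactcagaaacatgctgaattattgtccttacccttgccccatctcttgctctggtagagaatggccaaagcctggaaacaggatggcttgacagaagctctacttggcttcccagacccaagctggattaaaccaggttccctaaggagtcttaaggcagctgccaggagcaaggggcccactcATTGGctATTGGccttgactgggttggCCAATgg
Cfd: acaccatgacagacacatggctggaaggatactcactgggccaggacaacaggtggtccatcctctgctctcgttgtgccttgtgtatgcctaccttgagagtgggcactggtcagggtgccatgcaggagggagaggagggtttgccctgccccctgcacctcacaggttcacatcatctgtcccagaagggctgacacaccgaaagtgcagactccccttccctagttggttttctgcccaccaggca
Retn: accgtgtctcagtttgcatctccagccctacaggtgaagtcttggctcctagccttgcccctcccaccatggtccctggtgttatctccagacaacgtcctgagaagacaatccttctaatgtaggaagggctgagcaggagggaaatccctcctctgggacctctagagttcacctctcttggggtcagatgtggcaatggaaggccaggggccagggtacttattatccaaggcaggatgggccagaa

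C/EBP factors bind the promoters of many fat cell genes. Of the 10 members, Lep, Plin1 and Cidec held a C/EBP-like match in a RefSeq window of 300 bases that also takes in the first 50 bases of the transcript. Over all 32851 windows of that length 10.8% did. In Lep the match TTGCGCAA is the same on both strands and begins 55 bases before the start. A CCAAT box stood in the windows of Adipoq, Thrsp and Pnpla3, against 37.4% of all windows. No member window held the DR1 direct repeat bound by PPAR receptors (0.381% of windows), the E-box CACGTG (7.15%) or the TATA box TATAAA (13.6%).

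At ZT10 the adipocyte genes as a group did not differ in one direction between genotypes. Estimates were above 0 for 5 genes and below 0 for 5. The median of the 10 log2 fold changes (KO relative to WT) was 0.00, and so was that of all 17037 genes. Of the 10, 1 gene (Sncg, higher in KO mice) had an adjusted p-value at or below 0.05, against 6.39% of all genes tested. The genotypes were fully separated in 1 of the 10 (Sncg again), against 32.6% of all genes tested. None of the 10 was called lower, as 2.67% of all genes were, or lay lower in all KO than in all WT mice, as 15.6% did. No member passed both this threshold and an absolute log2 fold change of 1.5, which 0.64% of all genes did. Calls were made by the quasi-likelihood test of edgeR, with p-values adjusted over all genes tested by the Benjamini-Hochberg method. Unadjusted p-values under 0.05 were found for 3 members, Lep, Cfd and Sncg.

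**Figure D1:**
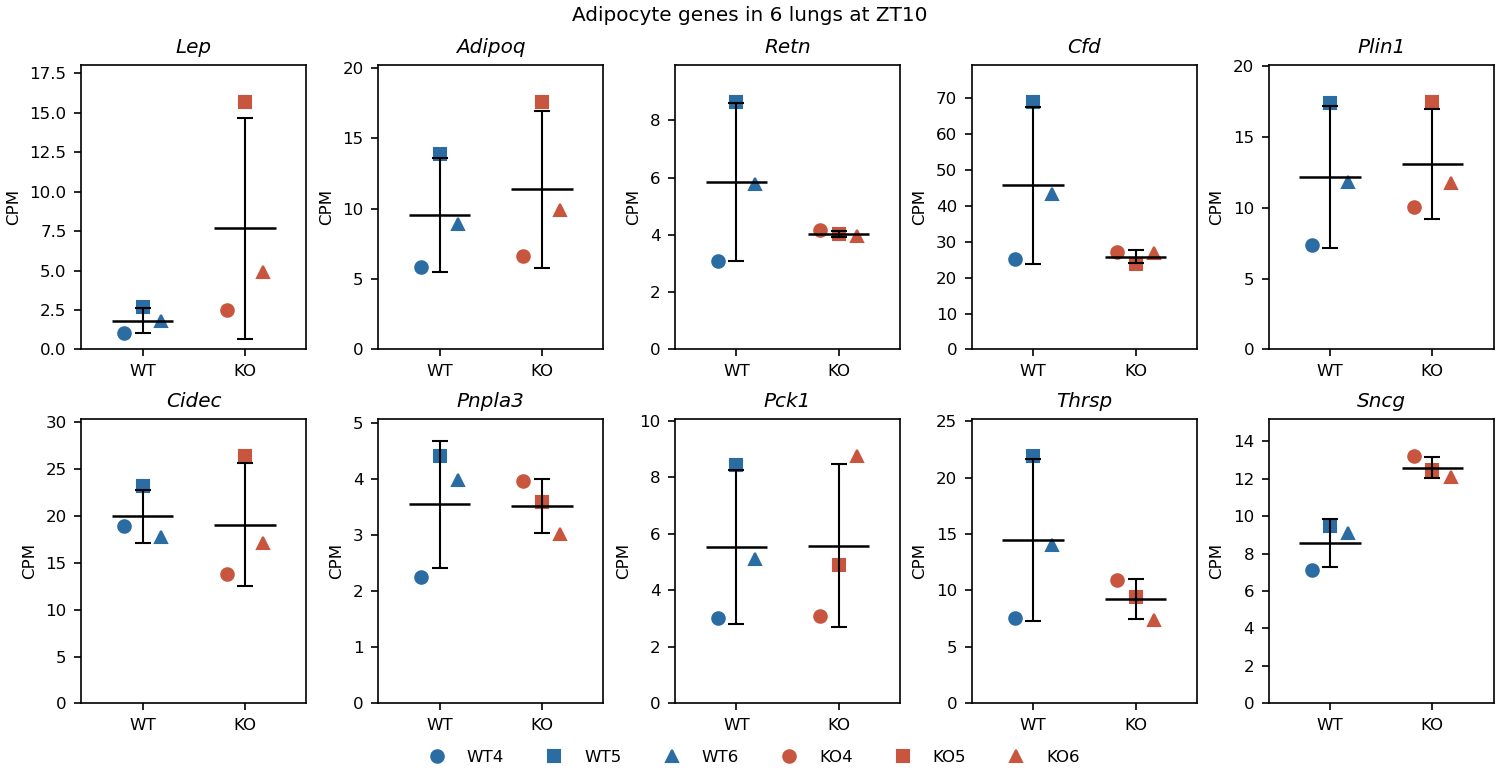
Level of each of the 10 adipocyte genes in CPM (linear axis from 0) in each WT mouse (blue) and KO mouse (red), with horizontal lines at the mean and bars of 1 SD (n = 3 mice per genotype). WT5 is the highest WT mouse in all 10 panels, the 3 KO mice sit close together for Retn and Cfd, and Sncg is the gene whose genotypes do not overlap.

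Among the secreted factors, Lep encodes leptin, the hormone by which fat stores signal to the hypothalamus. It measured 1.05, 2.68 and 1.78 CPM in WT4, WT5 and WT6 and 2.49, 15.7 and 4.89 CPM in KO4, KO5 and KO6. KO5 stood far above all other mice with 747 counts, while KO4 lay below WT5, so the groups overlapped. WT mice averaged 1.84 ± 0.820 CPM and KO mice 7.68 ± 7.02 CPM (SD, n = 3 each). Lep had the largest difference between genotypes of the 10, at 2.11 ± 0.685 (standard error) on the log2 scale, but with an adjusted p of 0.113 in edgeR's quasi-likelihood test it did not pass the threshold. Without KO5 the log2 fold change was 1.01, and with each mouse left out in turn it stayed between 1.01 and 2.52. Without KO4 it passed the threshold (adjusted p = 0.0488 in edgeR), as it did in edgeR's exact test with all mice (adjusted p = 0.0363). The lowest count of any member in any mouse was the 26 of Lep in WT4, for which the exact 95% Poisson interval runs from 17.0 to 38.1 counts and covers counting error only.

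Adipoq encodes adiponectin, an abundant plasma protein made by adipocytes that raises insulin sensitivity. It measured 5.84, 13.9 and 8.89 CPM in WT4, WT5 and WT6 and 6.65, 17.6 and 9.92 CPM in KO4, KO5 and KO6. The highest mouse of each genotype stood 2.38-fold (WT) and 2.64-fold (KO) above the lowest, and the ranges of the genotypes overlapped over most of their length. The log2 fold change was 0.28 (standard error 0.412, adjusted p = 0.725 by edgeR's quasi-likelihood test), and without KO5 it was -0.20.

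Cfd encodes adipsin (complement factor D), the serine protease that starts the alternative complement pathway. Its levels were 25.3, 68.9 and 43.2 CPM in WT4, WT5 and WT6 and 27.2, 23.7 and 26.8 CPM in KO4, KO5 and KO6. All KO mice lay beside WT4, the lowest WT mouse, and KO5, the mouse with the most Lep and Adipoq, had the least Cfd. The difference of -0.82 ± 0.317 (standard error) on the log2 scale, with an adjusted p of 0.160 in edgeR, did not pass the threshold, and the exact two-sided permutation test over the 6 mice gave p = 0.3, where 3 mice against 3 allow no p below 0.1. Without WT5 the log2 fold change was -0.41, and without WT4 it was -1.11 with an adjusted p of 0.0561 in edgeR.

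Resistin, a hormone that in mice is made mainly by adipocytes, is encoded by Retn. Its RNA measured 3.10, 8.63 and 5.79 CPM in WT4, WT5 and WT6 and 4.16, 4.03 and 3.95 CPM in KO4, KO5 and KO6. The WT mice spanned a 2.78-fold range that contained all 3 KO mice, whose own range was 1.05-fold. With a log2 fold change of -0.52 (standard error 0.332) its adjusted p was 0.370 in edgeR's quasi-likelihood test.

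The lipid droplet genes were close to equal in the 2 genotypes. Plin1 encodes perilipin 1, which coats the droplet and controls access of lipases to it. It measured 7.37, 17.3 and 11.8 CPM in WT4, WT5 and WT6 and 10.02, 17.4 and 11.8 CPM in KO4, KO5 and KO6. The highest mice of the genotypes were level, and so were the middle ones. Cidec, whose product enlarges droplets by fusing them, measured 18.9, 23.2 and 17.8 CPM in the WT mice and 13.8, 26.4 and 17.1 CPM in the KO mice in the same order. Here the WT mice were more alike than the KO mice, with ranges of 1.30-fold and 1.91-fold. Pnpla3, which encodes a lipase-like protein of the droplet surface, measured 2.25, 4.41 and 3.98 CPM in WT mice and 3.96, 3.59 and 3.01 CPM in KO mice. The KO values fell inside the WT range. Pnpla3 overlaps 3 other annotated genes, 1 of them (Gm20369) on the opposite strand, and the strand setting of the counting is not given in the sources used here. The log2 fold changes of the 3 droplet genes were 0.12, -0.05 and -0.01 (standard errors 0.325, 0.234 and 0.260).

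Pck1 encodes the cytosolic phosphoenolpyruvate carboxykinase, which in fat makes the glycerol backbone of triglyceride. It measured 3.02, 8.43 and 5.11 CPM in WT4, WT5 and WT6 and 3.08, 4.91 and 8.74 CPM in KO4, KO5 and KO6. Pck1 was the only member with its highest KO value in KO6. Thrsp, whose product promotes fatty acid synthesis and responds to thyroid hormone, measured 7.57, 21.9 and 14.04 CPM in WT mice and 10.9, 9.42 and 7.36 CPM in KO mice. The KO values lay in the lower part of the WT range, KO6 just under it. The log2 fold changes were 0.02 (standard error 0.459) for Pck1 and -0.65 (standard error 0.355, adjusted p = 0.301 by edgeR's quasi-likelihood test) for Thrsp.

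Sncg encodes gamma-synuclein, a small protein of white adipocytes and of peripheral neurons. It measured 7.13, 9.49 and 9.09 CPM in WT4, WT5 and WT6 and 13.2, 12.5 and 12.1 CPM in KO4, KO5 and KO6. Every KO mouse lay above every WT mouse, and Sncg rose from 8.57 ± 1.26 to 12.6 ± 0.559 CPM (SD, n = 3 each). On the log2 scale the difference was 0.56 ± 0.128 (standard error), which corresponded to a 1.47-fold higher level and had an adjusted p of 0.0497 in edgeR's quasi-likelihood test, just inside the threshold of 0.05. Among all genes tested, 3.72% were called higher in KO mice. The call was lost in all 6 leave-one-out fits, with adjusted p-values between 0.0766 and 0.132 in edgeR and log2 fold changes between 0.44 and 0.63. With DESeq2 size factors as the scaling it was lost at an adjusted p of 0.05002, and DESeq2's own test gave an adjusted p of 0.00825. Because Sncg is also a gene of neurons, a list of nerve genes was set beside it. The list summed to 21.9 to 25.8 CPM in WT and 15.1 to 19.5 CPM in KO mice. Of its 8 genes 4 were tested, and Chat had 0 counts in all 6 libraries.

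**Figure D2:**
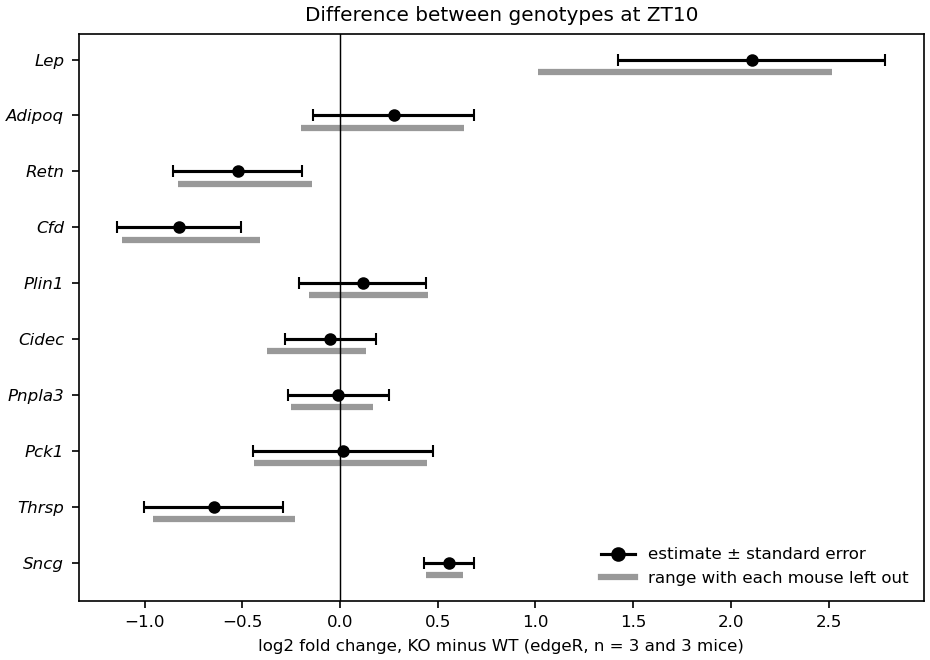
Log2 fold change of each gene in KO relative to WT mice from edgeR (black points, bars of 1 standard error, 3 mice per genotype) with the range over the 6 fits that each left out 1 mouse (grey). Lep has the largest estimate (2.11) and the widest error, Sncg (0.56) the narrowest, and the grey ranges of Adipoq, Plin1, Cidec, Pnpla3 and Pck1 cross 0.

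Levels of different members were compared per kb of exon. Cfd was the highest in both genotypes, at 49.7 ± 23.7 CPM per kb (SD, n = 3) in WT and 28.1 ± 2.07 in KO mice. In WT mice Cidec (10.8 ± 1.54), Sncg (10.1 ± 1.48), Adipoq (6.91 ± 2.95) and Thrsp (6.62 ± 3.28) came next, and for neighbours in this order the intervals of 1 SD around the means overlapped. Retn, Plin1, Pnpla3 and Pck1 followed, between 3.70 and 1.61 CPM per kb, again with overlapping intervals. Lep was the lowest at 0.548 ± 0.244 CPM per kb in WT mice. In KO mice Lep, at 2.29 ± 2.09 CPM per kb, could not be separated from Retn (2.56 ± 0.0655), Plin1 (2.81 ± 0.831) or Pnpla3 (2.27 ± 0.308). Its interval of 1 SD also overlapped those of Pck1 (1.63 ± 0.842), Thrsp (4.21 ± 0.813) and Adipoq (8.24 ± 4.05).

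The 10 genes varied more between mice of 1 genotype than most genes did. The SD of log2 CPM within genotypes had a median of 0.52 over the 10 members and of 0.13 over all genes tested, and all 10 members lay above the latter value. It was largest for Lep (1.04, above 98.8% of genes tested) and smallest for Sncg (0.16, above 60.9%). In WT mice alone the median SD was 0.64 for the members and 0.10 for all genes, and in KO mice it was 0.35 and 0.13. A spread of this size was not particular to the members, as the median SD within genotypes was 0.60 over the 7 tested genes of a brown adipocyte list and 1.18 over 8 tested genes of cardiac muscle.

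In WT lungs 9 of the 10 members shared 1 order of mice. WT5 was the highest WT mouse in 10 of 10 genes, and the order WT5, WT6, WT4 held in 9, where 14.1% of all genes tested had that order. The exception was Cidec, with WT6 lowest. Relative to the WT mean of each gene, the members' median was -0.65 in WT4, 0.63 in WT5 and 0.05 in WT6 on the log2 scale. WT4 lay below the WT mean in all 10 genes. In KO lungs no order was shared to that degree. KO5 was the highest KO mouse for Lep, Adipoq, Plin1 and Cidec, KO4 for Cfd, Retn, Thrsp, Pnpla3 and Sncg, and KO6 for Pck1. In KO5 the members ran from -0.83 (Cfd) to 3.14 (Lep) relative to their WT means, the widest range of the 6 mice.

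**Figure D3:**
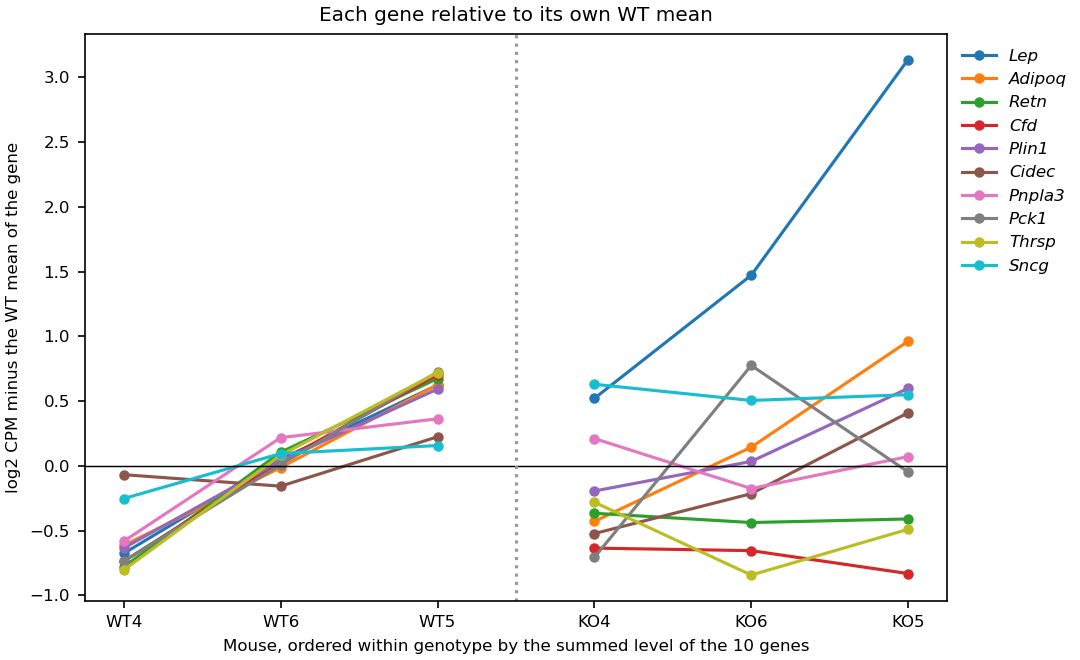
Log2 CPM of each of the 10 genes minus its own mean over the 3 WT mice, with mice ordered within each genotype by the summed level of the 10 genes and lines joining the values of a gene within a genotype. All lines rise from below 0 in WT4 to above 0 in WT5, least for Cidec and Sncg, and in KO5 Lep lies at 3.14 and Cfd at -0.83.

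The same can be read from the reads of a gene set against the reads of another in the same library, a measure that does not depend on depth. These ratios were computed after the values above were known and are given without a test. Per read of Adipoq there were between 0.179 (WT4) and 0.2 (WT6) reads of Lep in WT mice, a range of 1.12-fold. In KO4, KO5 and KO6 there were 0.375, 0.892 and 0.493, each above all WT mice. Cfd showed the opposite pattern, with 4.34, 4.96 and 4.86 reads per read of Adipoq in WT mice and 4.09, 1.35 and 2.70 in KO mice. Pck1 and Thrsp also varied little among WT mice (1.17-fold and 1.22-fold) and more among KO mice (3.15-fold and 3.06-fold), with overlapping genotypes. KO4 was nearest to the WT mice in the ratios of Lep and Cfd. Plin1 kept close to Adipoq in all mice, at 1.248 to 1.33 reads per read of Adipoq in WT and 0.992 to 1.51 in KO mice. Of the 9 other members, 6 stayed within a 1.25-fold range of their ratio to Adipoq among WT mice, and the range was wider among KO than among WT mice in 8, Cidec being the exception. With Plin1 as the reference these counts were also 6 and 8 of 9, and Lep ran from 0.142 to 0.155 reads per read of Plin1 in WT and from 0.249 to 0.900 in KO mice. Cfd and Retn were lower in all KO than in all WT mice by this reference. Retn ran from 0.421 to 0.497 in WT and from 0.231 to 0.415 in KO mice. Per read of Adipoq the genotypes overlapped for Retn, so its separation depended on the reference gene. The genotypes were separated for 2 of the 9 members per read of Adipoq and for 3 of the 9 per read of Plin1. By CPM 32.6% of all genes tested were separated, and the share for such ratios over all genes was not computed.

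**Figure D4:**
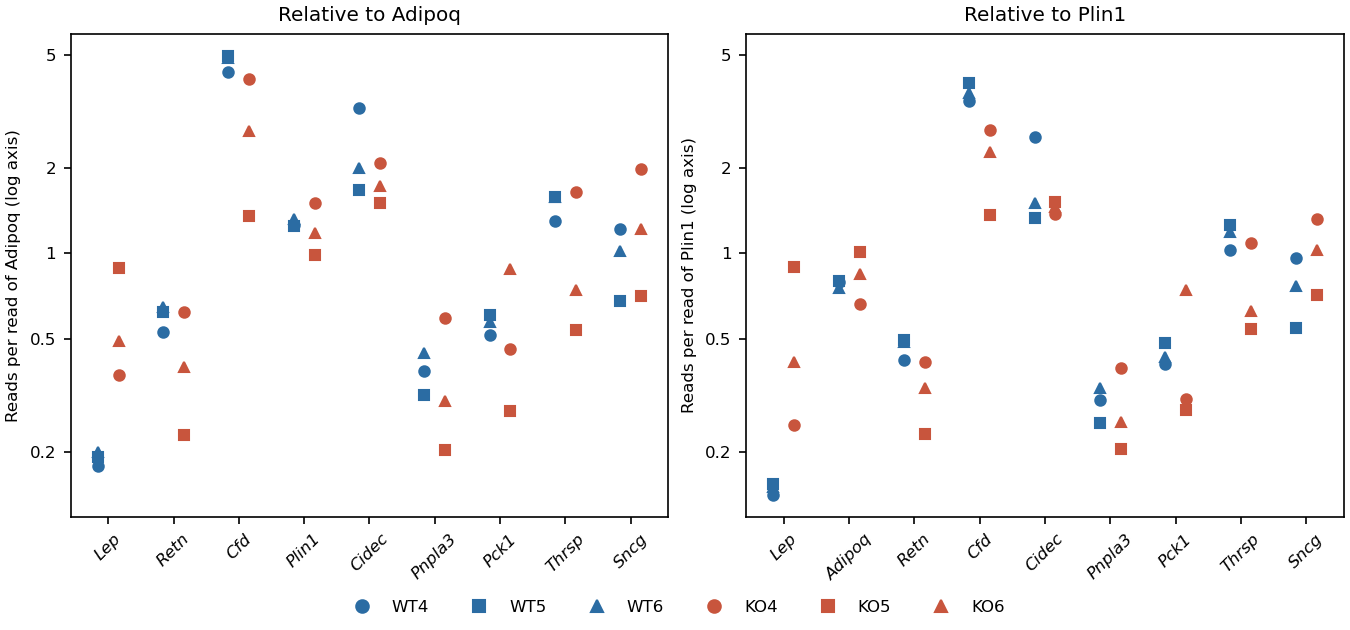
Reads of each gene per read of Adipoq (left) or Plin1 (right) in the same library, on log axes, with 1 point per WT mouse (blue) or KO mouse (red). The 3 WT mice cluster for Lep, Cfd, Retn, Pck1 and Thrsp, and the KO mice spread out, with Lep above (0.375 to 0.892 per read of Adipoq) and Cfd below (1.35 to 4.09) all WT mice. The genotypes are separated for 2 of 9 genes on the left and 3 of 9 on the right, beside 32.6% of all genes tested by CPM.

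Other genes of fat mostly shared the members' order of the WT mice. The study lists 9 further fat genes as lower at ZT7 (Ucp1, Fabp4, Mrap, Aoc3, Plin4, Car3, Nat8l, Dgat2 and Pdk4). Of these 8 were tested, none was called, and their median log2 fold change was 0.02. The order WT5, WT6, WT4 held in 7 of the 8. In KO lungs KO5 was the highest KO mouse in 6 of the 8, KO6 in 2 and KO4 in 0. Among the 10 members these counts were 4, 1 and 5. Car3, a carbonic anhydrase abundant in fat, measured 47.4, 127.8 and 87.5 CPM in WT4, WT5 and WT6 and 65.02, 112.9 and 74.4 CPM in KO4, KO5 and KO6. Fabp4, the fatty acid carrier of adipocytes and capillary endothelium, measured 18.2, 48.4 and 30.3 CPM in WT and 27.3, 49.99 and 36.8 CPM in KO mice. Both genes were highest in WT5 and KO5 and lowest in WT4 and KO4 within their genotypes.

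Among the 10 tested genes whose log2 CPM over the 6 mice was most like the mean of the 10 standardized members were Tmem45b, Car3, Rusc1, Igkv3-4, Mettl1, Zfp619, Gm37711, Gm15445 and Fabp4. Their likeness, given as Pearson's r over 6 mice, was between 0.948 and 0.992, and since they were chosen as the highest of all genes tested they carry no p. Tmem45b, a transmembrane protein gene, measured 1.61, 4.74 and 3.10 CPM in WT4, WT5 and WT6 and 2.54, 4.03 and 3.16 CPM in KO4, KO5 and KO6. Like Car3 and Fabp4, it is a gene that the study lists as lower in KO lungs at ZT7.

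Several lists of genes that act in fat cells and also elsewhere in the lung had a smaller median spread. The adipocyte transcription factors (10 tested) had a median SD within genotypes of 0.15. Klf15, a glucocorticoid-induced factor that promotes adipocyte differentiation, was the 1 called, and it fell from 66.3 ± 8.96 CPM in WT to 43.1 ± 2.22 CPM in KO mice (SD, n = 3 each; log2 fold change -0.62, standard error 0.102, adjusted p = 0.0243 in edgeR). The call for Klf15 held in 3 of the 6 leave-one-out fits. Pparg, the master regulator of fat cells, which lung macrophages and alveolar cells also express, measured 12.8 ± 0.747 CPM in WT and 15.7 ± 0.493 CPM in KO mice (SD, n = 3 each; adjusted p = 0.0844 in edgeR).

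None of the 13 genes for fatty acid and triglyceride synthesis was called, and their median log2 fold change was -0.07. WT5 was the highest WT mouse in all 13, as in the members, while KO5 was the lowest KO mouse in 9 of them. The 2 most abundant, Scd1 and Scd2, encode desaturases and measured 1331 ± 383 and 866 ± 51.6 CPM in WT and 1291 ± 263 and 814 ± 89.0 CPM in KO mice (SD, n = 3). Of 8 lipolysis genes 7 were tested and 1 was called. This was Abhd5, the activator of the main triglyceride lipase, which fell from 60.4 ± 1.29 to 51.5 ± 1.94 CPM (SD, n = 3 each; log2 fold change -0.23, adjusted p = 0.0426 in edgeR) and was called in none of the 6 leave-one-out fits.

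None of the 9 other droplet coat genes, the 9 fatty acid uptake genes, the 8 genes of adipokine receptors and leptin signalling or the 6 tested genes of adipocyte and stromal precursors was called. In the receptor list the median SD within genotypes was 0.05, the lowest of all lists. Adipor2, an adiponectin receptor, measured 206 ± 5.55 CPM in WT and 201 ± 5.26 CPM in KO mice (SD, n = 3). Cd36, the fatty acid transporter of capillaries and macrophages, measured 1408 ± 2.57 and 1387 ± 74.6 CPM (SD, n = 3). Plin2, the droplet coat of most cells outside fat, measured 106 ± 10.7 and 108 ± 6.66 CPM (SD, n = 3).

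Brown fat was hardly detectable by its defining genes. Ucp1, the uncoupling protein of brown adipocytes, had between 1 and 6 counts per mouse, and Elovl3 and Zic1 had 0 counts in all 6 libraries, which at 3 counts allows up to 0.0629 to 0.148 CPM. Of the 11 genes of the brown fat list 7 were tested and none was called. Their summed level, 64.3 to 88.9 CPM in WT and 69.0 to 97.4 CPM in KO mice, came mostly from genes that other lung cells or muscle express, such as Prdm16 and Fabp3.

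Tissues that border the lung varied between the same mice in other ways. The 10 cardiac muscle genes summed to 626, 1118 and 446 CPM in WT4, WT5 and WT6 and to 253, 162 and 1185 CPM in KO4, KO5 and KO6, with none of the 8 tested genes called. WT5 was the highest WT mouse for cardiac as for adipocyte genes, but among KO mice KO5 was the lowest in all 8 tested cardiac genes and KO6 the highest. The untested genes of the list ran the other way. Myl2 had 97 counts in KO5 and at most 3 in any other mouse, and Bmp10 had 6 in KO5 and at most 1 in any other. The 7 mesothelial genes summed to between 256 CPM (WT5) and 419 CPM (WT4) in WT mice and between 269 and 315 CPM in KO mice, with none called. For the 10 adipocyte genes the sums were 81.6, 179 and 122 CPM in WT and 95.4, 135 and 106 CPM in KO mice in the same order. The part of carried tissue in the levels of the adipocyte genes was not tested.

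**Figure D5:**
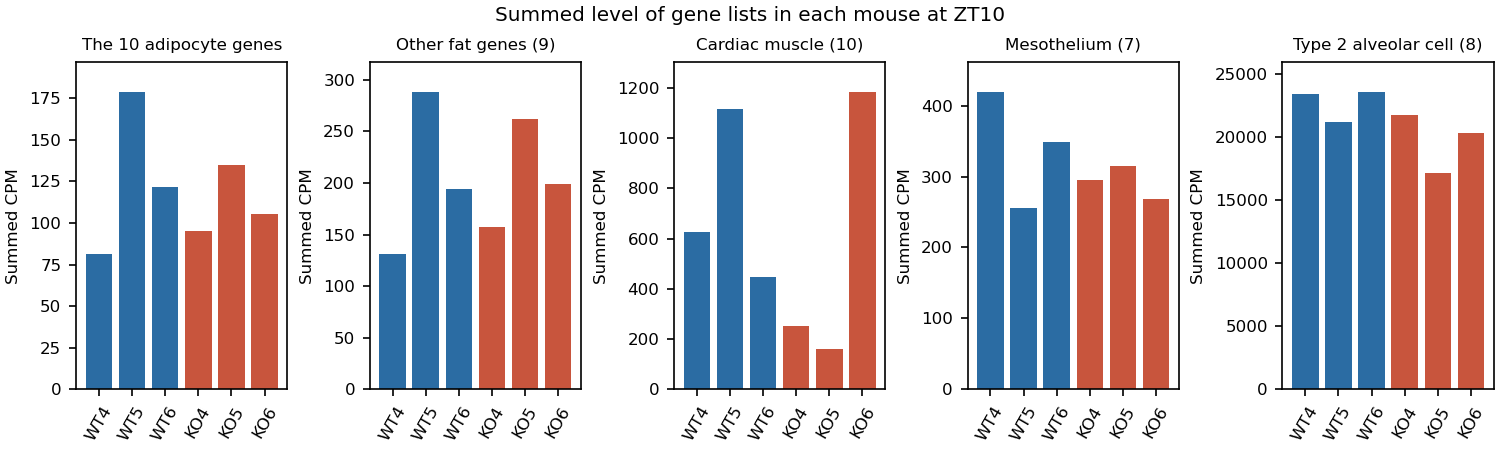
Summed CPM of 5 gene lists in each mouse (bars from 0, WT blue, KO red, 1 library each). Adipocyte genes and other fat genes share their highest WT mouse (WT5) and highest KO mouse (KO5), cardiac genes are highest in WT5 and KO6, mesothelial genes are lowest in WT5, and type 2 alveolar genes are lowest in KO5.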

How the data were processed

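Lung RNA of 6 mice was sequenced from stranded mRNA libraries. The authors trimmed the reads (Trimmomatic 0.36), aligned them to GRCm38 with STAR 2.5.3a and counted them per Ensembl gene with HTSeq 0.6.0, per the study's methods and the submitters' processing notes, and deposited raw counts for 47069 genes, 1 column per mouse. The annotation release and the strand setting are not given in the sources used here.

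KO and WT mice were compared with edgeR 4.0.16 (quasi-likelihood test, TMM scaling, filterByExpr with a minimum count of 10 and a minimum total of 15, no covariates, R 4.3.3), with Benjamini-Hochberg adjustment over 17037 genes. CPM values use TMM-scaled library sizes, log2 CPM a prior count of 2, and standard errors are the log2 fold change divided by the square root of F. The separate samples are separate mice. An exact two-sided permutation over mice was run for each member (SciPy 1.17.1). Positions and exon lengths came from GENCODE M21 and promoters from RefSeq, both GRCm38, and all 10 members matched. The fit was tested on simulated data.

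The members and gene lists were chosen with earlier results of these data known. All members are named, and in each list the called genes, or the 2 most abundant where none was called. Alternatives were DESeq2 1.42.0, other scalings and filters, edgeR's exact test, the replicate number as a block and each mouse left out. Results that need items withheld for evaluation are not reported here.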

Additional observations from a re-analysis of the deposited data

How the results depend on the processing

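Sncg was the 1 member called, and it was called in 5 of 13 alternatives. The number of members called was 0 with DESeq2 size factors, 2 (Lep and Sncg) with edgeR's exact test and between 0 and 1 with each mouse left out, the 1 being Lep without KO4. The number of genes called over all genes tested was 1089, and it became 1913 with DESeq2. With each mouse left out it ran from 1 to 1278, with 1 without WT5, 63 without WT6, 117 without KO6 and 254 without WT4. The titles share the numbers 4 to 6, but deviations of same-numbered mice from their group means correlated at -0.03, -0.15 and -0.02, so they were not taken as pairs. With the replicate number as a block 66 genes and 0 members were called, and the log2 fold change of Pnpla3 was 0.019 in place of -0.01. With each mouse left out, log2 fold changes changed sign for Adipoq (-0.20 to 0.64), Plin1 (-0.16 to 0.45), Pck1 (-0.44 to 0.44), Cidec (-0.37 to 0.13) and Pnpla3 (-0.25 to 0.17), none of them called, and the cause was not tested. The direction of Lep, Sncg, Cfd, Retn and Thrsp was the same in all 13 alternatives. The members' median log2 fold change lay between -0.20 without WT4 and 0.31 without WT5. With 3 mice per genotype and this spread, differences of 2.11 (Lep, standard error 0.685) and -0.82 (Cfd, standard error 0.317) on the log2 scale were not called.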

Other observations

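Of 9 genes of alveolar macrophages, the resident phagocytes of the air space, 9 were tested and 1 was called. Marco, a scavenger receptor for bacteria and particles, rose from 9.89 ± 1.28 CPM in WT to 23.7 ± 1.76 CPM in KO mice (SD, n = 3 each; log2 fold change 1.26, standard error 0.114, adjusted p = 0.00665 by edgeR's quasi-likelihood test), higher in 3 of 3 KO mice, and was called in 5 of the 6 leave-one-out fits. The other macrophage genes were not called, and the median log2 fold change of the list was 0.24. None of the 8 genes of type 2 alveolar cells was called, with a median of -0.14. Among 6 genes that define lung, Cldn5, a tight junction protein of endothelium, was the 1 called and fell from 369.7 ± 11.9 to 298 ± 17.8 CPM (SD, n = 3 each; log2 fold change -0.31, adjusted p = 0.0362 in edgeR). Without any 1 of the 6 mice its adjusted p was above 0.05 in edgeR.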
